A study of Rattus norvegicus with 6 samples.

Results

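A set of 6 rat genes of the Toll-like receptor and NF-kB pathway was described in cardiac fibroblasts grown with or without transthyretin fibrils. The members were fixed by Ensembl rat gene ID: the receptors Tlr2 (ENSRNOG00000009822) and Tlr4 (ENSRNOG00000010522), the NF-kB inhibitor Nfkbia (ENSRNOG00000007390), the adhesion molecules Icam1 (ENSRNOG00000020679) and Vcam1 (ENSRNOG00000014333), and the mitochondrial enzyme Sod2 (ENSRNOG00000019048). All 6 rows were present among the 27108 genes of the count table. The cells were fibroblasts from the ventricles of neonatal rats, cultured on glass, and fibronectin coated the glass in both groups. In the untreated group (UT) fibronectin was the only coating, and in the TTR group the coating also held transthyretin fibrils. Transthyretin is a plasma carrier protein that forms amyloid deposits in the heart. RNA was collected after 48 h, and each group held 3 libraries. The labels give no strain and do not say whether the 3 libraries of a group came from separate cell isolations, so p-values here reflect only the spread among these libraries, which may be technical.

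Toll-like receptors recognise microbial products and molecules released by damaged tissue. Their signal activates the kinase complex that marks IkB-alpha, the product of Nfkbia, for destruction, which frees NF-kB to enter the nucleus and switch on inflammatory genes. Nfkbia is itself such a target, so fresh inhibitor restrains the response, and Tlr2, Icam1, Vcam1 and Sod2 are also known as genes that NF-kB can induce. In the heart, fibroblasts are known to carry both receptors and to release cytokines and display adhesion molecules when these are engaged.

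The libraries held between 6574199 and 11774729 counts, the largest being TTR replicate 1 and the next 7287706. Across the 12049 genes tested, deviations from the group means correlated between libraries of different groups: 0.58 for UT replicate 3 with TTR replicate 1, 0.52 for UT replicate 1 with TTR replicate 3 and 0.44 for UT replicate 2 with TTR replicate 2. By a chi-square test of counts these were also the most similar of the 15 pairs of libraries, at 5.51, 7.41 and 5.69 per degree of freedom in the same order, against 8.78 or more within a group. Genes are not independent replicates, and the labels record no day or isolation that these pairs could share. The bulk RNA cannot tell fewer cells that express a gene from less RNA of it per cell. The fibroblast identity of the cultures and the share of other cell types were not analysed here, as the rows carry no symbols.

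Levels are given as CPM, each count scaled to a common library size after correction of the library total by edgeR's TMM factor. They are not corrected for transcript length, so levels of different genes were not compared. Differences are log2 values of TTR minus UT from the edgeR quasi-likelihood test, two-sided, with Benjamini-Hochberg adjustment over all 12049 genes and a threshold of 0.05. In brief, Tlr2 stood about 3.31-fold, Nfkbia 1.82-fold and Sod2 1.31-fold higher on fibrils. These genes showed no overlap between the groups, as did 3.75% of all tested genes on the higher side. Icam1 stood 1.31-fold higher with overlapping groups, and Tlr4 stood at 0.956 times its UT level. None of the 5 tested members passed the threshold, which 0.0083% of all genes passed as higher on TTR. DESeq2 called Tlr2 and Nfkbia on the same counts, where it called 0.251% of all genes as higher. Both of these calls were lost without UT replicate 2 or without TTR replicate 2.

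**Figure D1:**
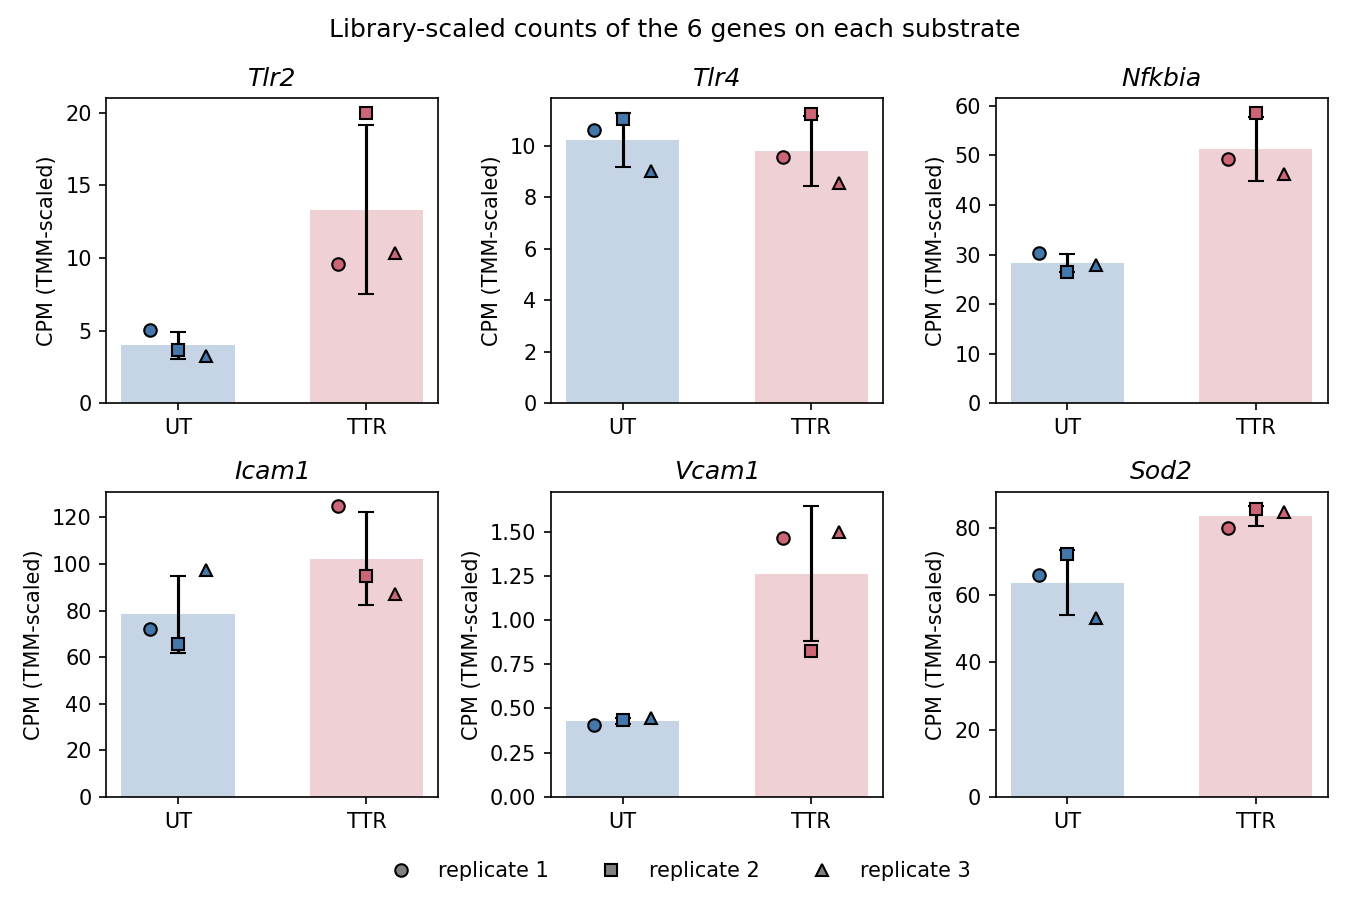
Library-scaled counts (CPM, y axis) of the 6 genes on UT and TTR substrates. Points are libraries, with the marker giving the replicate number, bars are means and error bars are SD (n = 3). Tlr2, Nfkbia, Vcam1 and Sod2 show no overlap between groups, whereas Icam1 and Tlr4 overlap.

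The stretches of 250 bases before the annotated start of 4 members are shown because they hold the sequence matches of the set. They come from RefSeq, build GRCr8, where all 6 symbols were matched; the counts were made on build rn6, so the coordinates belong to the sequences only. Capitals mark matches to the kappaB consensus, the decamer that NF-kB dimers are known to bind, or to a shorter related form, GGNNNTTCC, on either strand. The shorter form was chosen with the sequences in view. A match describes letters in this window and is not evidence of binding.
Tlr2, chr2:171504558-171504807, minus strand: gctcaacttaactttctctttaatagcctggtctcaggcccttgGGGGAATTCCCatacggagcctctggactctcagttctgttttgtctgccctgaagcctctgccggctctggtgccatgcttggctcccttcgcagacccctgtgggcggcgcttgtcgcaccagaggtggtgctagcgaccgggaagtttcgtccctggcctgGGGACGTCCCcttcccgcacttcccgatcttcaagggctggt
Nfkbia, chr6:78597073-78597322, minus strand: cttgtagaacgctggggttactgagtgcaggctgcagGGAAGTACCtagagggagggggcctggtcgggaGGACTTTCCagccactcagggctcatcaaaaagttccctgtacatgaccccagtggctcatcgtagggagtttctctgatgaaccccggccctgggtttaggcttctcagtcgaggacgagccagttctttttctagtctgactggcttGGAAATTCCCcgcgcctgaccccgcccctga
Icam1, chr8:27829595-27829844, plus strand: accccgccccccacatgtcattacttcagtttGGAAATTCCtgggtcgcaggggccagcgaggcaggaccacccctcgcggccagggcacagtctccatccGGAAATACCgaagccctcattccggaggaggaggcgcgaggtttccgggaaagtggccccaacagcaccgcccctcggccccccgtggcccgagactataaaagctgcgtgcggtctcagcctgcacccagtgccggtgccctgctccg
Vcam1, chr2:206742784-206743033, minus strand: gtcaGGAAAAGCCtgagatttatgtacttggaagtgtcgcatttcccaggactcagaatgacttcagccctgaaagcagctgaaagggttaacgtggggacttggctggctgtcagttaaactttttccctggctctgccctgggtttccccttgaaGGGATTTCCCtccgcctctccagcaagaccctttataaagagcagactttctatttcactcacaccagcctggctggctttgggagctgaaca

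The full consensus matched in Tlr2, Nfkbia and Vcam1, and in 6.33% of 33465 rat promoter windows of the same length. In Tlr2 it matched at 3 positions, of which 2 overlap in the run GGGGAATTCCC and the third is GGGACGTCCC, 42 to 33 bases before the start. In Nfkbia it matched at 1 position, 31 to 22 bases before the start, where the printed strand reads GGAAATTCCC. In Vcam1 it matched at 1 position, GGGATTTCCC, 93 to 84 bases before the start. The shorter form matched in these 3 genes and in Icam1, and in 15.4% of all windows. As it was chosen with the member sequences in view, that share is no fair background for its matches in the members. In each of the 3 genes it overlaps the consensus at 1 place or more. In Icam1 the shorter form gave GGAAATTCC, 218 to 210 bases before the start, and GGAAATACC, 149 to 141 bases before it. Neither form occurred in the windows of Tlr4 and Sod2, which says nothing of sites elsewhere in those genes. The sense-strand letters TATAAA, the core of the TATA box, were found in Icam1 and Vcam1 and in 8.06% of all windows.

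**Figure D2:**
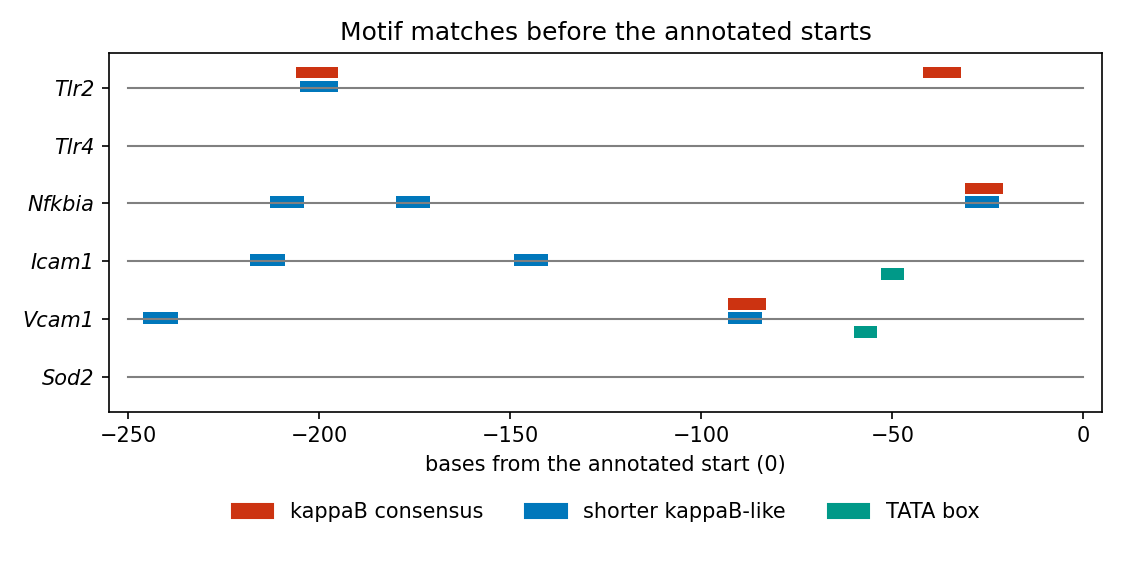
Positions of motif matches (x axis, bases from the annotated start at 0) in the 250 bases before the start of each gene. Red blocks are the kappaB consensus, blue blocks the shorter form and green blocks the TATA box. Tlr2, Nfkbia and Vcam1 hold the consensus, and Icam1 holds the shorter form without the consensus. Icam1 and Vcam1 also hold a TATA box, and Tlr4 and Sod2 hold no match.

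Tlr2, the receptor for bacterial lipopeptides that works in pairs with Tlr1 or Tlr6, had 37, 25 and 22 counts in UT replicates 1 to 3 and 111, 146 and 69 in TTR replicates 1 to 3. Scaled, these were 5.04, 3.63 and 3.26 CPM on UT and 9.56, 20.0 and 10.3 CPM on TTR. The groups did not overlap, and the lowest TTR library lay 1.90 times above the highest UT library. TTR replicate 2 stood apart within its group: its exact Poisson 95% interval of 16.9 to 23.5 CPM did not meet those of TTR replicate 1 (7.87 to 11.5) or TTR replicate 3 (8.05 to 13.1). These intervals cover counting error only. The means were 3.97 ± 0.940 CPM (UT) and 13.3 ± 5.82 CPM (TTR; SD, n = 3).

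The log2 difference of Tlr2 was 1.73 (SE 0.34, 95% interval 0.97 to 2.49), and the edgeR quasi-likelihood test gave an unadjusted p of 0.000595 (adjusted p = 0.299). It was the 22nd largest increase and the 24th smallest p among the 12049 genes. DESeq2 estimated the same difference at 1.73 (SE 0.37) and called it at an adjusted p of 0.00176, where 0.251% of 13932 genes were called higher on TTR. The edgeR test without a filter on low counts gave an adjusted p of 0.00681, where 0.183% of 18627 genes were called higher on TTR. The DESeq2 call was lost without UT replicate 2 (adjusted p = 0.0710), without UT replicate 3 (0.0760) or without TTR replicate 2 (0.453), the last at a log2 difference of 1.32.

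Tlr4, the receptor for bacterial lipopolysaccharide, had 78, 76 and 61 counts in UT replicates 1 to 3 and 111, 82 and 57 in TTR replicates 1 to 3. Scaled, the UT libraries stood at 10.6, 11.0 and 9.03 CPM and the TTR libraries at 9.56, 11.2 and 8.54 CPM. The 2 groups overlapped over nearly their whole range, and the highest and the lowest library were both TTR. The means were 10.2 ± 1.06 CPM (UT) and 9.78 ± 1.36 CPM (TTR; SD, n = 3). The log2 difference was -0.06 (SE 0.19, 95% interval -0.49 to 0.36), and the edgeR quasi-likelihood test gave an adjusted p of 0.999. On the fold scale the interval ran from 0.714 to 1.28, so a doubling lay outside it.

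The balance of both receptors was also compared within each library, where the scaling between libraries cancels. Of the counts of both genes together, Tlr2 made up 32.2%, 24.8% and 26.5% in UT replicates 1 to 3 and 50.0%, 64.0% and 54.8% in TTR replicates 1 to 3. As the genes differ in length, these shares are read only between libraries. The highest UT share had an exact binomial 95% interval of 23.8% to 41.5%, below that of the lowest TTR share at 43.2% to 56.8%. Both intervals cover counting error only and leave out the spread among libraries. The ratio of Tlr2 to Tlr4 was 3.37-fold higher on TTR, and the groups did not overlap. The exact permutation test, two-sided, gave p = 0.1, the smallest that 3 against 3 libraries allow.

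**Figure D3:**
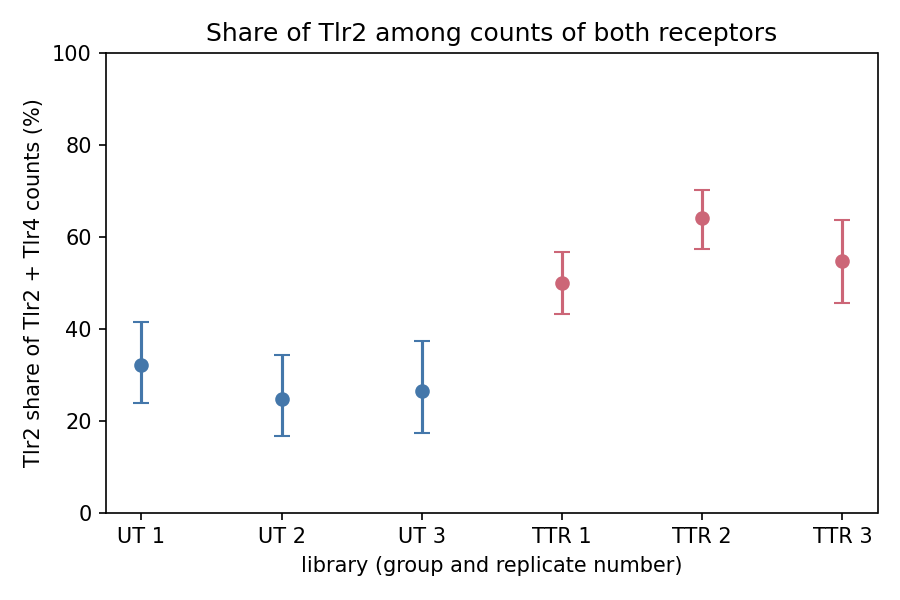
Share of Tlr2 in the summed counts of Tlr2 and Tlr4 (y axis, percent) in each library (x axis). Points are shares and bars exact binomial 95% intervals for counting error. The UT libraries lie between 24.8% and 32.2% and the TTR libraries between 50.0% and 64.0%.

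Nfkbia, which encodes the inhibitor IkB-alpha, had 222, 183 and 189 counts in UT replicates 1 to 3 and 571, 428 and 308 in TTR replicates 1 to 3. Scaled, it stood at 30.2, 26.6 and 28.0 CPM on UT and at 49.2, 58.7 and 46.2 CPM on TTR. All TTR values were above all UT values, with the lowest TTR value 1.53 times the highest UT value, and TTR replicate 2 was again the highest. The means were 28.3 ± 1.85 CPM (UT) and 51.3 ± 6.52 CPM (TTR; SD, n = 3).

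The log2 difference of Nfkbia was 0.86 (SE 0.14, 95% interval 0.55 to 1.17), and the edgeR quasi-likelihood test gave an unadjusted p of 0.00013 (adjusted p = 0.108). Its p was the 14th smallest of all genes tested, while its increase ranked 88th in size. DESeq2 gave an adjusted p of 0.000752 for Nfkbia, and edgeR without the low count filter gave 0.0102. The DESeq2 call was lost without UT replicate 2 (adjusted p = 0.0629) or without TTR replicate 2 (0.166).

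Icam1 encodes an endothelial and stromal surface protein that binds leukocyte integrins. It had 530, 453 and 657 counts in UT replicates 1 to 3 and 1448, 692 and 580 in TTR replicates 1 to 3. Scaled, these were 72.2, 65.7 and 97.3 CPM on UT and 125, 94.8 and 86.9 CPM on TTR. The groups overlapped, since UT replicate 3 lay above TTR replicates 2 and 3. The means were 78.4 ± 16.7 CPM (UT) and 102 ± 20.0 CPM (TTR; SD, n = 3), and the log2 difference was 0.39 (SE 0.18, 95% interval -0.03 to 0.80).

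For Icam1 the edgeR quasi-likelihood test gave an unadjusted p of 0.0662 (adjusted p = 0.999). Its highest library in each group, UT replicate 3 and TTR replicate 1, belonged to the pair whose whole profiles deviated together most, and the part of that shared deviation in the result was not tested. In each of the 3 cross-group pairs that deviated together, which were found in these counts, Icam1 was higher in the TTR library. The share of all genes that did so was not computed, so this describes the counts and is no test of Icam1. Without UT replicate 3 the log2 difference of Icam1 was 0.57, and without TTR replicate 1 it was 0.22.

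Vcam1, the counter-receptor of another leukocyte integrin, was close to the limit of detection. Its counts were 3 in each UT library and 17, 6 and 10 in TTR replicates 1 to 3. Scaled, these were 0.409, 0.435 and 0.444 CPM on UT and 1.46, 0.822 and 1.50 CPM on TTR. The groups did not overlap, but the exact Poisson 95% interval of TTR replicate 2, 0.302 to 1.79 CPM, held all 3 UT values. Summed over the libraries, 33 TTR counts stood against 9 UT counts, a scaled ratio of 3.01 with an exact 95% interval of 1.41 to 7.15 that covers counting error only.

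The low count filter kept Vcam1 out of the main test. Without the filter its edgeR log2 difference was 1.54 (SE 0.61), with an unadjusted p of 0.0205 and an adjusted p of 0.999. By DESeq2 the log2 difference of Vcam1 was 1.56 (SE 0.86), with an unadjusted p of 0.0684 and an adjusted p of 1.00.

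Sod2, the mitochondrial superoxide dismutase, had 483, 497 and 358 counts in UT replicates 1 to 3 and 927, 623 and 565 in TTR replicates 1 to 3. Scaled, it stood at 65.8, 72.1 and 53.0 CPM on UT and at 79.9, 85.4 and 84.7 CPM on TTR. The groups did not overlap, although the lowest TTR library lay only 1.11 times above the highest UT library. The means were 63.6 ± 9.74 CPM (UT) and 83.3 ± 3.00 CPM (TTR; SD, n = 3). The log2 difference was 0.39 (SE 0.13, 95% interval 0.09 to 0.69), and the edgeR quasi-likelihood test gave an unadjusted p of 0.0175 (adjusted p = 0.999).

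**Figure D4:**
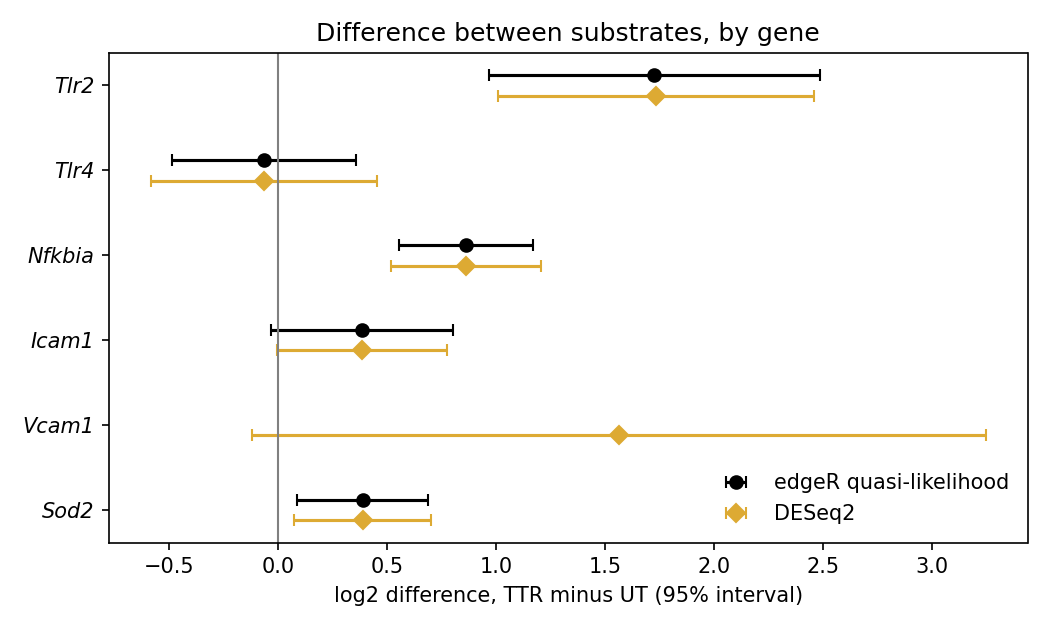
Log2 difference, TTR minus UT, of each gene (x axis) with its 95% interval, by the edgeR quasi-likelihood test (black circles) and by DESeq2 (yellow diamonds). The intervals of Tlr2, Nfkbia and Sod2 lie above 0, and those of Icam1, Tlr4 and Vcam1 include 0. Vcam1, left out of the edgeR test by the low count filter, has a DESeq2 interval only, the widest shown (-0.12 to 3.25).

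Of the 5 tested members, 4 were higher on TTR and 1 was lower, whereas 48.8% of all tested genes were higher. An unadjusted edgeR p under 0.05 with a higher level on TTR was found for 3 of the 5 (Tlr2, Nfkbia and Sod2), and for 1.51% of all tested genes. The same 3 had no overlap between the groups, as had 3.75% of all tested genes on the higher side. The count of calls after adjustment was 0 of 5 by edgeR (0.0083% of all tested genes as higher on TTR). It was also 0 of 5 by limma-voom, where 1 of 12049 genes was called in either direction. It was 2 of 6 by DESeq2 (0.251% of all genes) and 2 of 6 by edgeR without the low count filter (0.183%), Tlr2 and Nfkbia in both. The median log2 difference was 0.39 over the 5 members and 0.00 over all tested genes, with a median size of 0.10 over all tested genes. The members were chosen with earlier results of these data known, so these counts describe them and do not test the pathway.

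**Figure D5:**
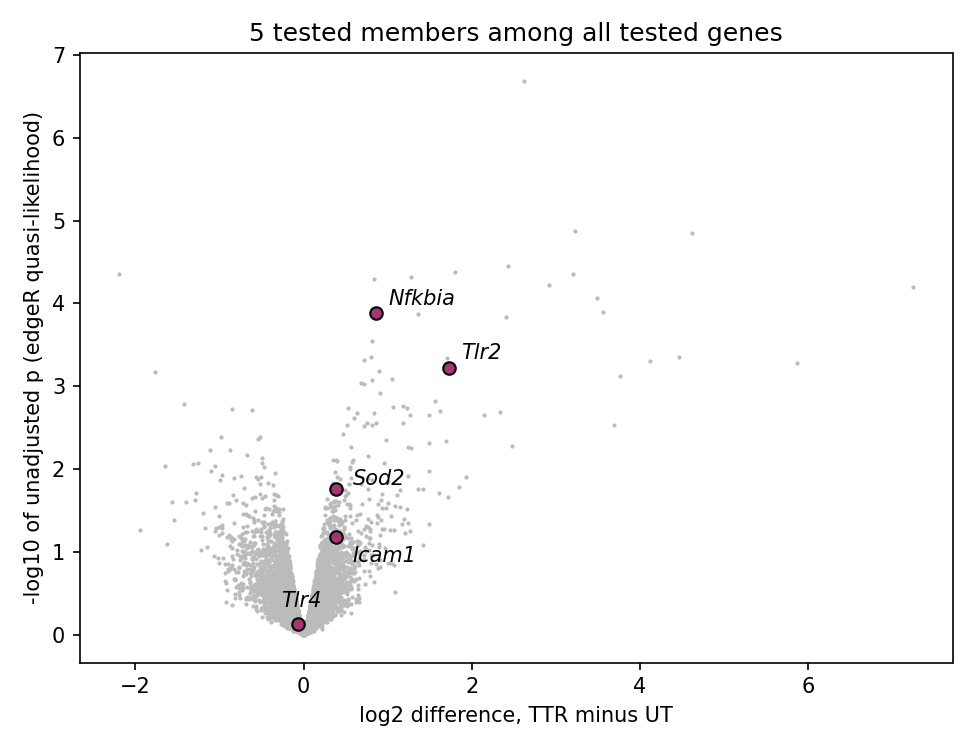
Log2 difference, TTR minus UT (x axis), against the negative log10 of the unadjusted edgeR p (y axis) for the 12049 tested genes in grey, with the 5 tested members in purple. Nfkbia and Tlr2 hold the 14th and 24th smallest p, and Tlr4 lies near 0 on both axes.

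The members differed in how they varied among libraries of 1 group. In TTR, replicate 2 was the highest library for Tlr2, Tlr4, Nfkbia and Sod2, whereas Icam1 was highest in replicate 1 and Vcam1 in replicate 3. In UT, replicate 1 was the highest for Tlr2 and Nfkbia, replicate 2 for Tlr4 and Sod2, and replicate 3 for Icam1, while Vcam1 had 3 counts in each UT library. Except for Tlr2 in TTR and Icam1 in both groups, the exact Poisson 95% interval of the highest library met another of its group. In those other cases, which library was highest is therefore not resolved beyond counting error. Some lower positions were resolved. For Sod2, the interval of UT replicate 3 (47.6 to 58.8 CPM) lay below those of UT replicates 1 (60.0 to 71.9) and 2 (65.9 to 78.8). Tlr2 had the largest spread, with an SD of 23.7% of the mean on UT and 43.7% on TTR. Its UT counts of 37, 25 and 22 were low, so counting error adds to that UT spread. Icam1 came close on UT, with an SD of 21.2% of the mean on UT and 19.5% on TTR. For Sod2 these were 15.3% and 3.60%, and over all tested genes the medians were 12.9% and 14.4%.

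Over the 6 libraries, Nfkbia was the 12th most similar of 12048 other genes to Tlr2 by Pearson correlation of log2 CPM, and Tlr2 the 10th most similar to Nfkbia (r = 0.98). These libraries also carry the group difference and their shared deviations, so the likeness is a description. Sod2 ranked 207th in likeness to Tlr2, Icam1 1783rd and Tlr4 4763rd. The gene nearest to Tlr2 in profile was ENSRNOG00000013781 (r = 0.999), and ENSRNOG00000009609 was second nearest to both Tlr2 and Nfkbia (r = 0.993 and 0.990). The sources used here pair neither ID with a symbol.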

How the data were processed

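The authors deposited 1 table of raw counts per Ensembl gene, whole numbers without normalization, for the 6 libraries. Per the submitters' processing notes, STAR, featureCounts, edgeR and the build rn6 were used; versions, annotation and strand setting were not given in the sources used here. Members were taken by ID with the symbols of the member rule, since the reference paired 0 of the 27108 IDs with a symbol; the 116 symbols of pathway and cell type lists were therefore not analysed here. Members and lists were chosen with earlier results of these data known.

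TTR was compared with UT by edgeR 4.0.16 (R 4.3.3) quasi-likelihood on all 6 libraries, with group as the only term, TMM factors and filterByExpr at a minimum count of 10, which left 12049 genes. SE came from the log2 difference and the F statistic. Alternatives used DESeq2 1.42.0, limma-voom (limma 3.58.1), other scalings and filters, a block for the replicate number, and the omission of single libraries. Log2 CPM for profile likeness used a prior count of 2. All members are named; the 2 genes nearest in profile were found for each tested member, and IDs are printed for Tlr2 (both) and Nfkbia (the second). Fits were tested on simulated data. No pair of libraries agreed within sampling noise (smallest chi-square per degree of freedom 5.51, mean count of 20 or more per gene).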

Additional observations from a re-analysis of the deposited data

How the results depend on the processing

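Genes called over the whole table numbered 1 in the main test, and 1 with limma-voom or with any of the other scalings (RLE, upper quartile, plain totals). The count was 37 with DESeq2, 36 without a low count filter and 3 when genes had to reach 1 CPM in 3 or more libraries. Leaving out 1 library gave 1 to 9 calls with edgeR (9 without TTR replicate 1, 2 without UT replicate 2). DESeq2 with 1 library left out, chosen after seeing the data, gave 29, 22 and 25 without UT replicates 1, 2 and 3, and 38, 15 and 39 without TTR replicates 1, 2 and 3. The cause was not tested.

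Of the members, 2 were called with DESeq2 and 2 without the filter, Tlr2 and Nfkbia in both, and 0 under the other planned settings. DESeq2 with 1 library left out called 0 to 2 of them. It called 0 without UT replicate 2 (22 of 13749 genes called) or TTR replicate 2 (15 of 15146). Without UT replicate 3 it called 1, Nfkbia (25 of 14127 genes called). Over 21 alternatives the log2 difference of Tlr2 ran from 1.31 to 1.95 (adjusted p from 0.00176 to 1.00) and that of Nfkbia from 0.76 to 0.93 (0.000713 to 0.699), each with an unadjusted p under 0.05 in all 21. For Sod2 the range was 0.27 to 0.48, with an unadjusted p under 0.05 in 16 of 21, and for Icam1 0.21 to 0.57, in 5 of 21. With 1 library left out Tlr4 ran from -0.17 to 0.0135 with edgeR and from -0.17 to 0.0177 with DESeq2, turning positive without TTR replicate 3. The 4 scalings moved the median of all genes by less than 0.01.

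Under the replicate block, edgeR called 0 genes and 0 members (unadjusted p of 0.00285 for Tlr2 and 0.00141 for Nfkbia), and DESeq2, added after seeing the data, called 21 genes and 0 members (adjusted p of 0.0670 for Tlr2 and 0.152 for Nfkbia). Deviations of same-numbered libraries correlated at -0.38, 0.44 and -0.40 for numbers 1 to 3, so the numbers were not taken to pair the libraries, and only number 2 correlated best with its own. Pathway lists could not be matched to rows and were not run. What depth costs each member was not tested; the lowest counts were those of Vcam1, 3 per UT library.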
